A study of Mus musculus with 8 samples.

Results

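Of the 22180 genes with a symbol of their own on the array, 9 genes of brain lipid transport were followed across the vessel preparations: the apolipoprotein genes Apoe, Apod and Clu, the lipid exporter genes Abca1 and Abcg1, the lipoprotein enzyme genes Lcat and Lpl, and the receptor genes Vldlr and Lrp1. They were chosen by name and role, and each was read from the transcript cluster (the probe group of a gene) with the highest mean over the 8 arrays. The samples were brain vessels of male C57Bl6 mice aged 2 months, pooled from several animals per library. In 4 digested preparations an enzymatic digestion with Liberase and DNAse in the warm took the place of mechanical homogenization and partly digested the basal lamina (BL), the sheet that holds astrocyte endfeet on the vessel wall, and 4 undigested preparations were homogenized mechanically. Each preparation was hybridized to an Affymetrix Mouse Gene 2.0 array, and the comparison was meant to show which transcripts are lost from vessels whose endfeet have come off. Enzymes, warming and the absence of homogenization came together in the digested group, so their effects cannot be told apart.

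In the brain, lipids travel between cells on small particles that resemble high density lipoprotein. Astrocytes are known as the main source of apolipoprotein E, exporters of the ABC family load cholesterol and phospholipid onto it, lecithin-cholesterol acyltransferase esterifies the cholesterol, and receptors of the low density lipoprotein receptor family take the particles up. Vessel walls bring further parts, since endothelium, mural cells, perivascular macrophages and choroid plexus epithelium express genes of this system too.

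All levels are on the log2 scale, and differences were taken as digested minus undigested. Array medians lay between 5.58 and 5.71. A background floor of 4.68 was set from olfactory receptor genes, taken here as mostly silent in vessels, and clusters with a mean above it were tested. The labelled tissue carried its markers: all 14 genes of an endothelial list lay above the floor, and the tight junction gene Cldn5 had 10.12 ± 0.15 in digested and 10.54 ± 0.32 in undigested vessels (SD, n = 4 each). The astrocyte genes Aqp4 (difference -2.48, adjusted p = 0.000248) and Gfap (difference -2.04, adjusted p = 0.000124, both limma) fell in digested vessels. Other astrocyte genes did not pass: Aldh1l1 (0.26, limma adjusted p = 0.251), Hes5 (0.16, 0.470), Sox9 (-0.02, 0.941) and Fgfr3 (-0.20, 0.329). The paper likewise reports Hes5, Sox9 and Aldh1l1 as not depleted. The number of arrays limits the precision.

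Upon digestion, Apoe, Apod and Abca1 fell and Vldlr and Clu rose, while Abcg1, Lcat, Lpl and Lrp1 did not pass the test. All 9 members lay above the floor, and 5 of them (55.6%) passed limma's test at an adjusted p of 0.05, 3 lowered and 2 raised. Over all 16217 genes above the floor 23.4% passed, 9.04% lowered and 14.4% raised, and over all 27658 clusters above it 21.2% passed. The median difference of the members was -0.25, beside 0.02 over all genes. None of the 9 reached a 2-fold change, which 2.73% of all genes did with an adjusted p under the threshold: Vldlr was 1.97-fold higher and Apod 1.93-fold lower in digested vessels. Of all genes, 1.47% had a higher positive difference than Vldlr and 1.63% a more negative one than Apod.

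**Figure D1:**
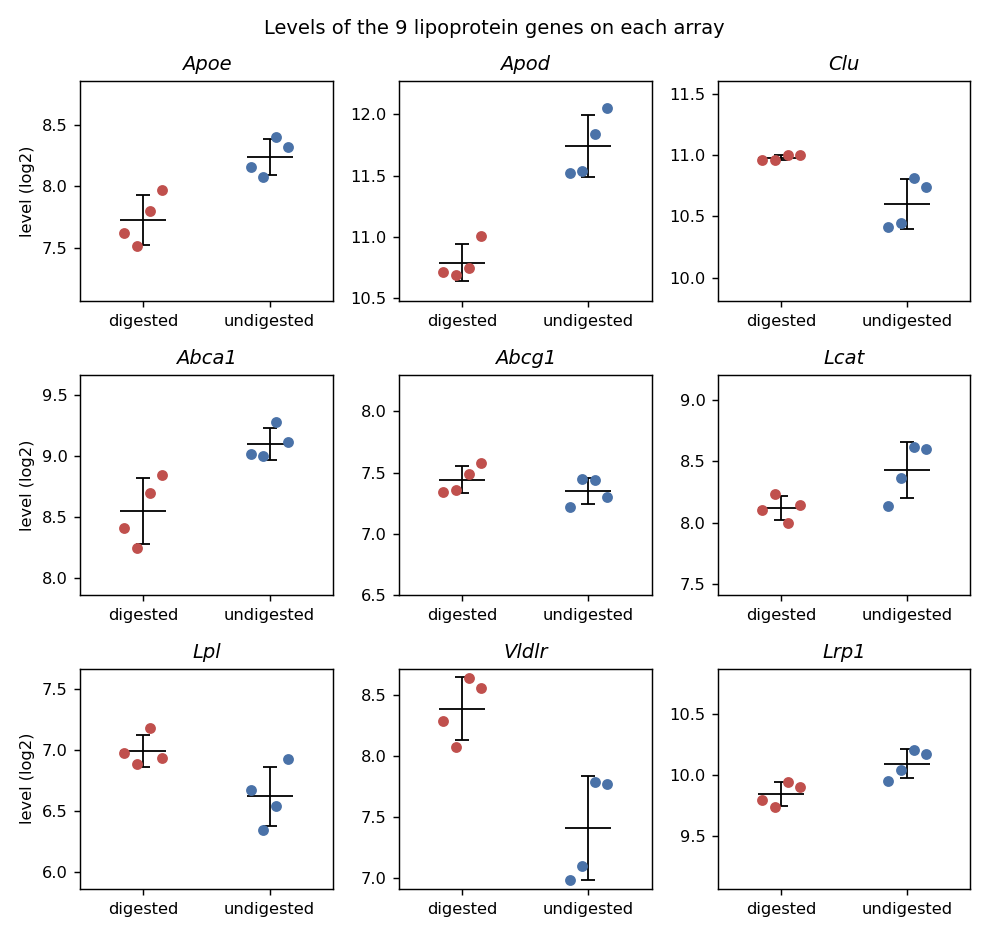
Level (log2) of each of the 9 genes on the 4 digested (red) and the 4 undigested (blue) arrays, in order of array number, with the mean and SD of each group as black bars and the same height of axis in every panel. For Apoe, Apod, Abca1 and Lrp1 all digested points lie below the undigested ones, for Clu and Vldlr all lie above, and for Abcg1, Lcat and Lpl the groups overlap.

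The stretches of DNA before the start sites of the genes that changed are shown so that sequence motifs of lipid regulators, looked for in them, can be seen in place. RefSeq starts (assembly GRCm38.p6) were at hand for 6 of the 9 members, 9 starts in all. Of the 5 genes past the test these were Apoe (3 starts), Apod (1), Abca1 (1) and Vldlr (2). Starts of Clu, Abcg1 and Lpl were not among those at hand, so no sequence of Clu is printed. The 250 bases before the first listed start, the outermost of each gene, are printed 5′ to 3′ on the gene's strand, with capitals on any of the motif letters searched. They lie at chr7:19699189-19699438 (minus strand) for Apoe, chr16:31314809-31315058 (minus) for Apod, chr4:53159896-53160145 (minus) for Abca1 and chr19:27216234-27216483 (plus) for Vldlr. Which start the RNA on these arrays came from was not measured.
Apoe: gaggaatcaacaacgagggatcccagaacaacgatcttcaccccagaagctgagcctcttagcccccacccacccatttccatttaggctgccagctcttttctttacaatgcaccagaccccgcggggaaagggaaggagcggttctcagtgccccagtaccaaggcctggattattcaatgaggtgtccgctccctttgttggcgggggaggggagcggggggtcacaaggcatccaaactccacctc
Apod: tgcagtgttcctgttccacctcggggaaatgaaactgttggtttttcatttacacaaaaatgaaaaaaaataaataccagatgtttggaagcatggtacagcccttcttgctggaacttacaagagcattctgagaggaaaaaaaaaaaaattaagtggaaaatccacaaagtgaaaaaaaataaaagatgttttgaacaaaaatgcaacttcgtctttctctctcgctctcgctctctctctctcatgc
Abca1: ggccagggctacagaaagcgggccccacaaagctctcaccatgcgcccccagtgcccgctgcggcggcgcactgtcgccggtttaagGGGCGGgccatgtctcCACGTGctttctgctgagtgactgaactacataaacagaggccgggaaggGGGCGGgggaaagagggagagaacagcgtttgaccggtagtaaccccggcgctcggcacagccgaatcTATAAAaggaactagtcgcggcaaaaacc
Vldlr: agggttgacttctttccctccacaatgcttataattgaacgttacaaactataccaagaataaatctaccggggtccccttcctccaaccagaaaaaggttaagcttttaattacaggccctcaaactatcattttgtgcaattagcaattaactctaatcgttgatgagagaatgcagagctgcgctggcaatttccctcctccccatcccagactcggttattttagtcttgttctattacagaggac

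On both strands the search covered the GC box GGGCGG, the TATA box TATAAA, the E-box CACGTG, the LXR response element (AGGTCA at both ends of 4 free bases) and the sterol response element TCACNCCAC. Of the 4 stretches printed, Abca1 had matches, and the other 3 had none. The windows of starts further downstream, not printed, held a TATA box on each strand for Apoe (the middle start, 100 to 95 and 96 to 91 bases before it) and a GC box for Vldlr (42 to 37 bases before its other start). The printed stretch of Abca1 held the GC box at 2 positions. It also held an E-box from 147 to 142 bases before the start and a TATA box from 29 to 24 bases before it. Only exact letters were matched, and looser forms of the motifs were not looked for. A motif without a match, such as the LXR element in the Abca1 stretch, can therefore not be called absent. Of 32851 promoter windows of the same length, 32.7% held the GC box, 12.4% the TATA box, 6.02% the E-box, 1.05% the sterol element and 0.0152% the strict LXR letters. The stretch of Apod had 36.4% G and C bases and that of Abca1 61.6%.

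Among the apolipoproteins, Apoe and Apod fell and Clu rose. Apoe, whose product is the main lipid carrier of brain particles and a ligand of the receptor family, had 7.62, 7.52, 7.80 and 7.97 on the digested arrays, against 8.16, 8.08, 8.41 and 8.32 on the undigested ones. The highest digested array lay below the lowest undigested one. Apoe was thus 1.43-fold lower in digested vessels (log2 difference -0.52, 95% confidence interval -0.78 to -0.25, limma adjusted p = 0.0164). Of all genes, 29.6% had groups that did not overlap, 11.9% with every digested array lower and 17.8% with every digested array higher. Centring the arrays on the endothelial list set Apoe at 0.011, and without undigested arrays 3 and 4 it was -0.39 (adjusted p = 0.0978).

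Apod encodes a lipid carrier of the lipocalin family that is unrelated in fold to apolipoprotein E. It had 10.71, 10.69, 10.74 and 11.01 on the digested arrays and 11.52, 11.54, 11.84 and 12.06 on the undigested ones. The groups were parted by a gap, with digested array 4 the closest to the undigested group. The difference was -0.95 (SE 0.14, 95% confidence interval -1.26 to -0.65), or 1.93-fold lower (limma adjusted p = 0.00222), the lowest p among the 9 members. With any single array left out it stayed between -1.03 and -0.85 and past the test, and after endothelial centring it was -0.43 (adjusted p = 0.0758).

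Clu encodes clusterin (apolipoprotein J), a secreted chaperone that also rides on lipoprotein particles. It had 10.96, 10.96, 11.002 and 11.001 on the digested arrays, against 10.41, 10.45, 10.81 and 10.74 on the undigested ones. The digested arrays lay within 0.04 log2 units of each other, whereas undigested arrays 1 and 2 sat below undigested arrays 3 and 4. Clu rose 1.3-fold (log2 difference 0.38, 95% confidence interval 0.14 to 0.61, limma adjusted p = 0.0314). The call ended with any digested array left out, or undigested array 1 (0.31) or 2 (0.33), at adjusted p of 0.0574 to 0.0846, and without both undigested arrays 1 and 2 the difference was 0.21 (adjusted p = 0.196). With the methods' t-test its adjusted p was 0.0566.

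Of the exporters, Abca1 fell and Abcg1 did not pass the test. Abca1, whose product moves cholesterol and phospholipid out of cells onto apolipoproteins that carry little lipid, had 8.41, 8.25, 8.69 and 8.84 on the digested arrays and 9.01, 9.0, 9.28 and 9.11 on the undigested ones. The groups did not overlap, and the digested arrays spread more widely (SD 0.27) than the undigested ones (SD 0.13). The difference was -0.55 (95% confidence interval -0.86 to -0.24, 1.46-fold lower, limma adjusted p = 0.021). It was -0.50 without digested array 1 (adjusted p = 0.0568), -0.64 and -0.45 without undigested arrays 1 and 2 or 3 and 4 (adjusted p = 0.0679 and 0.112), and -0.02 after endothelial centring, in none of these past the test. With the methods' t-test its adjusted p was 0.0585.

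Abcg1 encodes an exporter that passes cholesterol to particles already holding lipid. Its values were 7.34, 7.36, 7.49 and 7.58 in digested and 7.22, 7.45, 7.44 and 7.30 in undigested vessels. The groups overlapped, and the difference of 0.09 had a 95% confidence interval of -0.11 to 0.29 (limma adjusted p = 0.518). After endothelial centring, under which the median over all clusters was 0.50 in place of -0.02, it stood at 0.62 (adjusted p = 0.00587).

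The enzyme genes lay on opposite sides of 0 without passing the test. Lcat, for the enzyme that esterifies cholesterol on particles, had 8.10, 8.24, 8.0 and 8.14 on the digested arrays, against 8.14, 8.36, 8.62 and 8.60 on the undigested ones. Only undigested array 1 reached down among the digested values. The difference was -0.31 (95% confidence interval -0.58 to -0.04, limma adjusted p = 0.0953), and it passed without undigested array 1 (-0.41, adjusted p = 0.0339) or without both undigested arrays 1 and 2 (-0.49, adjusted p = 0.0337). Centring on the endothelial list turned it to 0.22.

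Lpl encodes lipoprotein lipase, which hydrolyses the triglycerides of lipoproteins at the vessel wall. It had 6.97, 6.88, 7.18 and 6.94 in digested and 6.67, 6.35, 6.54 and 6.92 in undigested vessels. Undigested array 4 alone lay within the digested range. The difference was 0.37 (95% confidence interval 0.08 to 0.66, limma adjusted p = 0.0688). It passed without that array (0.47, adjusted p = 0.0266), without undigested arrays 3 and 4 (0.48, adjusted p = 0.0465) and after median centring (0.40, adjusted p = 0.0499). It also passed after endothelial centring (0.90). Under that centring 73.5% of all genes were raised, so that pass says little about Lpl. A further Lpl cluster had its mean below the floor and was not used.

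Of the receptors, Vldlr rose and Lrp1 did not pass. Vldlr, a receptor of apolipoprotein E particles and of reelin, had 8.28, 8.07, 8.64 and 8.56 on the digested arrays, against 6.99, 7.10, 7.79 and 7.77 on the undigested ones. No digested array reached down to the undigested values, but undigested arrays 3 and 4 stood 0.73 log2 units above undigested arrays 1 and 2. The difference of 0.98 (SE 0.21, 95% confidence interval 0.50 to 1.45) was 1.97-fold with a limma adjusted p of 0.012, and it kept its call with any single array left out (0.84 to 1.1). Without undigested arrays 1 and 2 it was 0.61 (adjusted p = 0.0689) and without undigested arrays 3 and 4 it was 1.34 (adjusted p = 0.00419).

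Lrp1 encodes a large endocytic receptor with many ligands, apolipoprotein E among them. Its levels were 9.79, 9.74, 9.94 and 9.91 in digested vessels and 9.95, 10.04, 10.20 and 10.17 in undigested vessels. The groups touched without overlap, digested array 3 lying just under undigested array 1. The difference was -0.25 (95% confidence interval -0.45 to -0.05, limma adjusted p = 0.0799). A second quantile normalization (-0.29, adjusted p = 0.0421) or a block for array numbers 1 and 2 against 3 and 4 (adjusted p = 0.0266) brought it past the test, and endothelial centring turned it to 0.28.

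**Figure D2:**
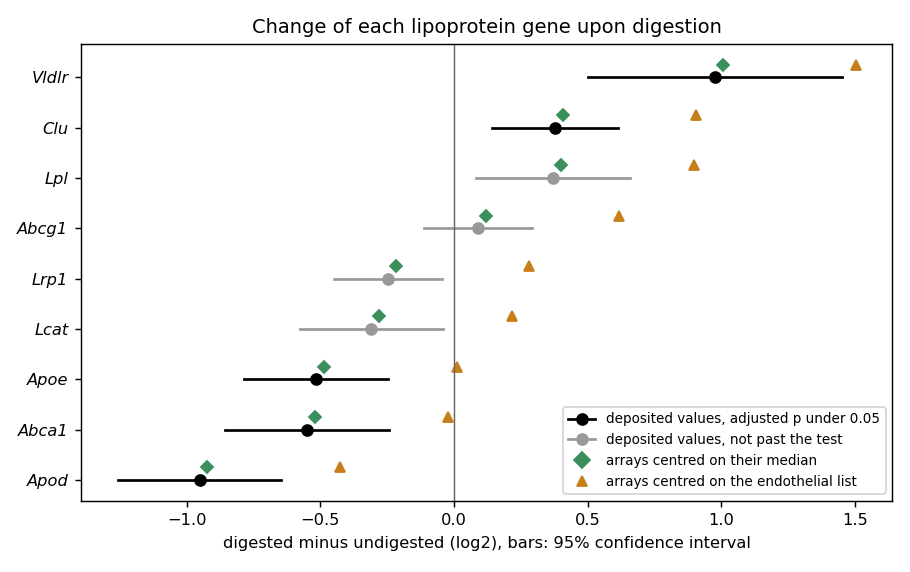
Difference of each gene, digested minus undigested (log2, x axis), with its 95% confidence interval on the deposited values (circles, black where the limma adjusted p was under 0.05), and the same difference after centring each array on its median (diamonds) or on the endothelial list (triangles). Endothelial centring moved every gene to the right, with Apoe at 0.011 and Vldlr at 1.5.

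Since a shift of a whole array cancels in the difference of 2 genes on it, genes of like role were also set against each other within each array, in 5 pairs. A difference of this kind shows unequal change and does not say which gene moved. The pairs were chosen with earlier results of these data known. In every pair but Apod minus Apoe the 2 genes already lay on opposite sides of 0, so that a difference was to be foreseen. The p-values of the pairs therefore describe the differences and are not a fresh test. How many pairs of other genes would part in this way was not counted. All 5 differed between the groups, each without overlap, with p = 0.0286 in an exact permutation test (two-sided), which is the least that 70 assignments can give, and 0.0286 after adjustment over the 5 pairs. Clu minus Apoe was 3.25 ± 0.18 in digested and 2.36 ± 0.08 in undigested vessels (SD, n = 4 each), so that Clu gained 0.89 on Apoe. Apod lost 0.44 relative to Apoe, with 3.06 ± 0.10 in digested and 3.5 ± 0.16 in undigested vessels. The apolipoprotein genes thus parted in both comparisons, Clu upward and Apod downward of Apoe.

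Abca1 minus Abcg1 was 1.11 ± 0.17 in digested and 1.75 ± 0.13 in undigested vessels (SD, n = 4 each), a difference of -0.64. Lcat minus Lpl was 1.13 ± 0.23 in digested and 1.81 ± 0.29 in undigested vessels, a difference of -0.68. It lost its call without any single digested array (adjusted exact p = 0.0571 each). Vldlr minus Lrp1 was -1.46 ± 0.16 in digested and -2.68 ± 0.31 in undigested vessels, and with 1.22 it was the largest of the 5 differences. Both genes of that pair encode receptors of apolipoprotein E, and every digested array had a higher value of it than every undigested one.

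**Figure D3:**
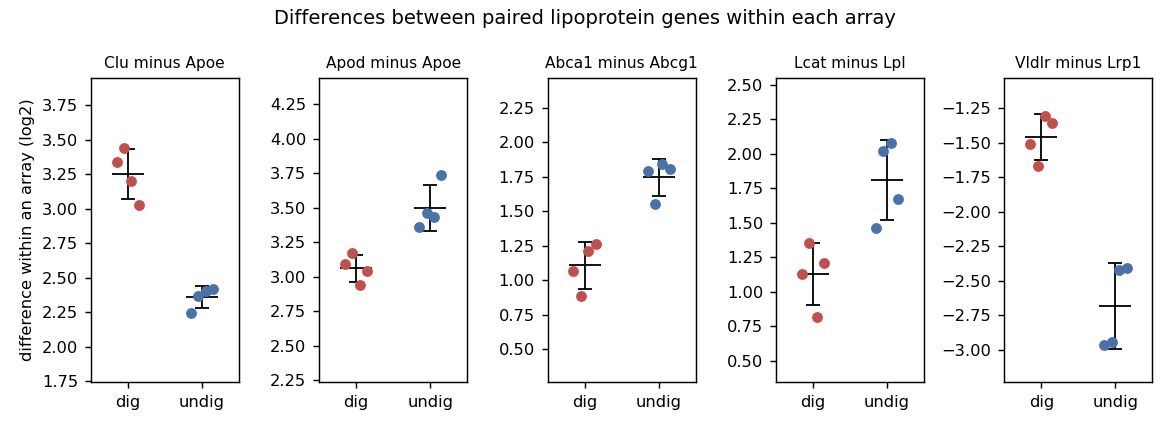
Difference between paired genes on the same array (log2, y axis), for the 4 digested (red, dig) and the 4 undigested (blue, undig) arrays, with mean and SD in black and the same height of axis in every panel. The digested points lie above the undigested ones for Clu minus Apoe and Vldlr minus Lrp1 and below them for the other 3 pairs.

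The levels of several cell types moved along with these genes. In bulk RNA, fewer cells of a type and less RNA per cell cannot be told apart. Beside the lowered Apoe, Apod and Abca1, 10 of 11 astrocyte membrane and secreted genes fell (list mean 6.82 to 7.27 on digested arrays, 8.28 to 8.69 on undigested ones), as did 6 of 8 perivascular macrophage genes (6.52 to 6.86 against 7.11 to 7.99) and 7 of 10 perivascular fibroblast genes (8.59 to 8.78 against 9.14 to 9.69), and none of these 29 genes passed as raised. Pericyte genes (8 of 10) and ependymal motile cilia genes (6 of 10) fell too. Over all genes 9.04% were lowered and 14.4% raised. The endothelial list, with 8 of 14 lowered, ran from 9.73 to 10.03 on digested and from 10.24 to 10.65 on undigested arrays. Beside the raised Vldlr and Clu, 10 of 11 choroid plexus epithelium genes rose, with list means of 10.17 to 10.74 on digested arrays, 8.68 on average on undigested arrays 1 and 2, and 9.51 on undigested arrays 3 and 4. Ttr, the transthyretin gene that defines this epithelium, was the 1 that did not pass (difference 0.27, limma adjusted p = 0.0522). It had 13.58 ± 0.02 in digested and 13.31 ± 0.13 in undigested vessels, near the top of the scale on all arrays. Digested arrays 3 and 4 were above digested arrays 1 and 2 for Abca1 by 0.44, Vldlr by 0.42, Apoe by 0.32, Abcg1 by 0.18, Apod by 0.17, Lrp1 by 0.16, Lpl by 0.13 and Clu by 0.04, and below them for Lcat (-0.10). Undigested arrays 3 and 4 were above undigested arrays 1 and 2 for Vldlr by 0.73, Apod by 0.42, Lcat by 0.36, Clu by 0.34, Apoe by 0.24, Lpl by 0.22, Lrp1 and Abca1 by 0.19 and Abcg1 by 0.04. Every marker list with values was also higher on undigested arrays 3 and 4, apart from 2. These were the endothelial list (10.63 on undigested arrays 1 and 2, 10.32 on 3 and 4) and the pericyte list (9.67 and 9.46). Other marker lists moved upon digestion as well. Their mean differences were -1.03 for ependymal motile cilia, -0.88 for pericyte, -0.69 for astrocyte intracellular and -0.33 for microglia genes. The smooth muscle (0.62), neuron (0.40) and oligodendrocyte (0.32) lists had higher digested means. The part of any of these cell types in the changes of the 9 genes was not tested.

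**Figure D4:**
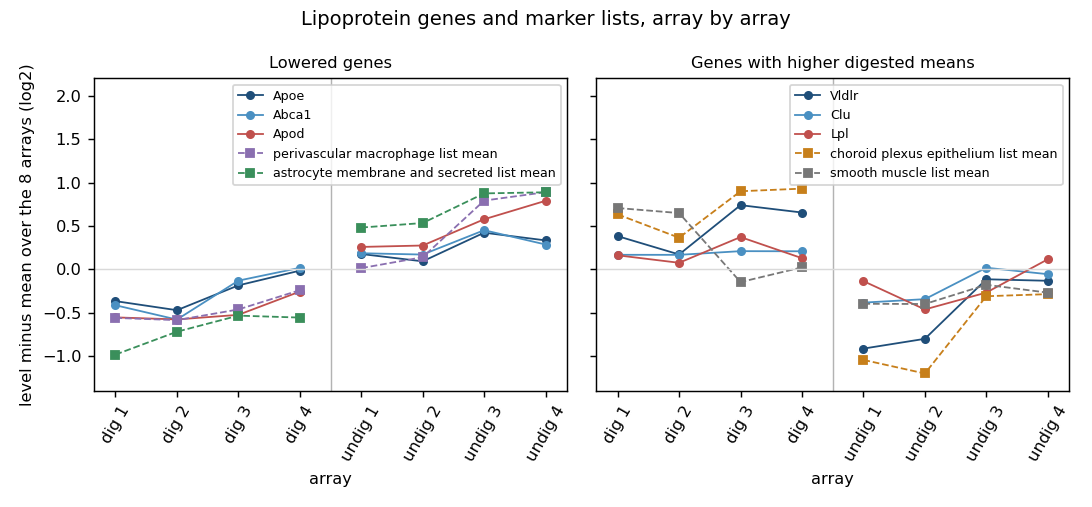
Level on each array minus the mean over the 8 arrays (log2, y axis) for 3 lowered genes (left) and for 3 genes with higher digested means (right), with the means of marker lists as squares; dig and undig stand for digested and undigested, and lines join arrays of a group only to guide the eye. Apoe and Abca1 run close together. Vldlr is lower on undigested arrays 1 and 2 than on undigested arrays 3 and 4, and so is every marker list drawn.

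The closeness of 2 genes was measured as the root mean square difference of their levels over the 8 arrays, each gene centred on its own mean. Among the members Apoe and Abca1 were the closest pair, at 0.058 log2 units, with Lcat and Lrp1 next at 0.13. Of 16216 other genes above the floor none lay nearer to Apoe than Abca1 did, while 1 lay nearer to Abca1. As the pair stands out from these same values, its rank is a description and not a test. The median distance of all genes was 0.35 from Apoe and 0.37 from Abca1. The gene nearer to Abca1 was Ptgds, for prostaglandin D synthase, at 0.05, and outside the 9 members it was also the nearest to Apoe (0.062). Ptgds had 12.21, 12.03, 12.51 and 12.57 on the digested and 12.77, 12.76, 12.94 and 12.94 on the undigested arrays. At the other end, Apod and Vldlr were the members farthest apart (0.98).

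For the other members the nearest genes were Tspan8 and Hcar1 for Apod (0.039 and 0.077), Hspe1 and Fbxo25 for Clu (0.04 and 0.048), Slc22a17 and Wdr86 for Vldlr (0.061 and 0.064), and Rora and Nrbp2 for Lrp1 (0.029 and 0.03). Next after Ptgds came Slc41a1 for Apoe (0.064) and Pms2 for Abca1 (0.075). Dnajb12 and Brip1os were nearest to Abcg1 (0.036 and 0.038), Pde1a and Tln2 to Lcat (0.065 and 0.068), and Kbtbd4 and Gm19689 to Lpl (0.069 and 0.086). These are the closest of many genes over few arrays and are given as a description. Genes that change little lie near to many others by this measure.

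The wider pathway showed no common direction. Of 76 further genes written down by role, 65 had a symbol of their own on the array and 59 lay above the floor. Of those 59, 9 fell, 9 rose and 41 did not pass (30.5% called, beside 23.4% of all genes), with a median difference of 0.01. After endothelial centring 3 of the 59 fell and 37 rose (62.7%), and of the 9 members none fell and 4 rose (44.4%), beside 1.47% of all genes lowered and 73.5% raised.

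Of the receptor genes, the role with the longest list, 6 of 15 fell and 1 rose, beside 9.04% of all genes lowered and 14.4% raised. Lrp2, which encodes the scavenging receptor megalin, had 4.99 ± 0.09 in digested and 6.06 ± 0.31 in undigested vessels (SD, n = 4 each), a 2.10-fold decrease (limma adjusted p = 0.00185). Lrp4, known as the agrin receptor of the neuromuscular junction, fell 2.00-fold to 6.79 ± 0.11 in digested vessels, against 7.79 ± 0.21 in undigested ones (adjusted p = 0.00108). Cd36, a scavenger and fatty acid receptor gene, fell 1.75-fold (adjusted p = 0.00447). Lrp2 and Lrp4 passed under each alternative that kept them (Lrp2 lay below the stricter filter), whereas Cd36 lost its call with endothelial centring (-0.28). Of 7 receptor partner genes, Lrpap1 rose 1.47-fold (adjusted p = 0.00646), so that 14.3% were called, beside 23.4% of all genes. The product of Lrpap1 is the chaperone that guards receptors of this family on their way through the cell. The other 6 partners, reelin (Reln) among them, did not pass.

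Of 8 other apolipoprotein genes above the floor, Apoo and Apoc1 rose, none fell and 6 did not pass. Apoo rose 1.81-fold, with 7.13 ± 0.18 in digested and 6.28 ± 0.16 in undigested vessels (SD, n = 4 each, limma adjusted p = 0.00194). Despite its name, its product is known as a subunit of a complex of the inner mitochondrial membrane. Apoc1, a small apolipoprotein gene that neighbours Apoe in the genome, had 5.51 ± 0.05 in digested and 5.0 ± 0.19 in undigested vessels, a 1.42-fold rise (adjusted p = 0.00925), so that it lay on the other side of 0 from Apoe.

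Of 8 other exporter genes of the ABC family 3 passed (37.5%, beside 23.4% of all genes). Abca9 fell 1.97-fold (limma adjusted p = 0.0118), and Abca2 and Abca5 rose 1.54-fold and 1.52-fold (adjusted p = 0.0129 and 0.00859). Abca2 is known from oligodendrocytes. Of 9 genes of an oligodendrocyte list 4 were raised, 1 was lowered and 4 did not pass, beside 14.4% of all genes raised and 9.04% lowered. The part of these cells in the rise of Abca2 was not tested. Among 11 enzyme and transfer genes 3 passed (27.3%, beside 23.4% of all genes). Angptl4, whose product inhibits lipoprotein lipase, had 5.71 ± 0.47 in digested and 7.22 ± 1.01 in undigested vessels (SD, n = 4 each), a 2.85-fold decrease (adjusted p = 0.0419). Its groups overlapped, with undigested array 3 at 6.01 and digested array 3 at 6.39. The Angptl4 call was lost in 6 of 8 fits without a single array, with the methods' t-test (adjusted p = 0.121), with the replicate number as a block (0.0852), with array numbers 1 and 2 against 3 and 4 as a block (0.0511), with no filter on low values (0.0573) and without undigested arrays 1 and 2 (0.174). Npc2, for the cholesterol-binding protein of lysosomes, rose 1.58-fold (adjusted p = 0.0103), and Cyp27a1, for sterol 27-hydroxylase, fell 1.52-fold (adjusted p = 0.0256).

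Of 10 regulator genes 2 rose and none fell. Ppargc1a, a coactivator gene of mitochondrial biogenesis, rose 1.77-fold (limma adjusted p = 0.0117). Rxra, for the receptor that pairs with LXR, rose 1.36-fold, with 7.62 ± 0.08 in digested and 7.18 ± 0.18 in undigested vessels (SD, n = 4 each, adjusted p = 0.0165). The sterol regulators did not pass: Nr1h3, which encodes LXR alpha, differed by -0.22 (adjusted p = 0.15), Srebf1 by 0.21 (adjusted p = 0.182) and Srebf2 by 0.21 (adjusted p = 0.161). These 3 were named here after their values were seen, as known regulators of Abca1, Abcg1 and the sterol genes. Without undigested arrays 1 and 2 the calls of Lrpap1 (0.43), Abca2 (0.41), Abca5 (0.42), Npc2 (0.46), Ppargc1a (0.54) and Rxra (0.34) were lost, and without undigested arrays 3 and 4 those of Abca9 (-0.64) and Cyp27a1 (-0.32). Endothelial centring also ended the calls of Abca9 (-0.45) and Cyp27a1 (-0.08), and Cyp27a1 lost its call without digested array 2 (-0.53) or 4 (-0.62) or undigested array 4 (-0.52) and with the methods' t-test (adjusted p = 0.0727).

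**Figure D5:**
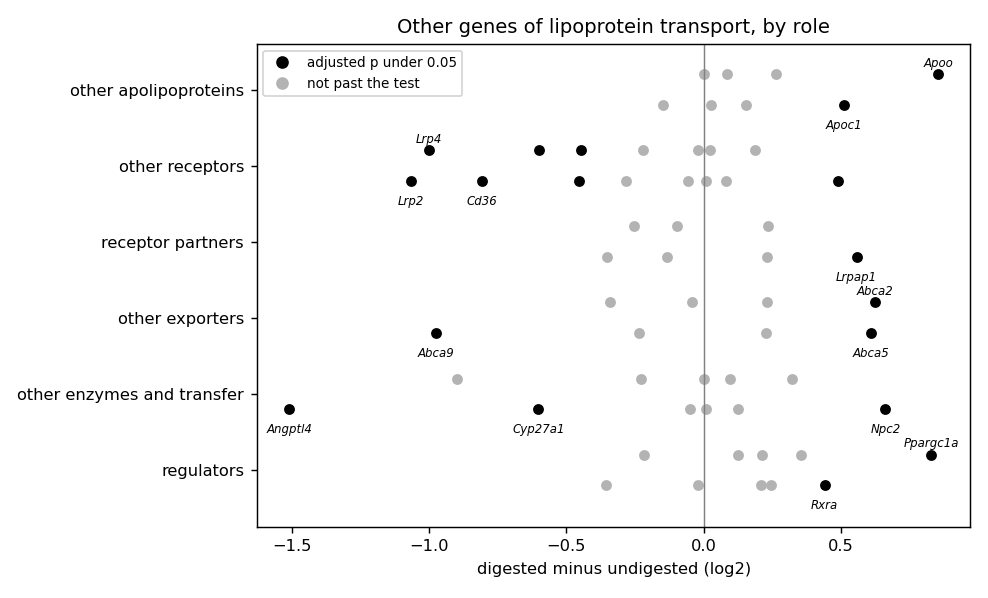
Difference of each of the 59 other pathway genes, digested minus undigested (log2, x axis), by role, black where the limma adjusted p was under 0.05, with the genes chosen by rule labelled. The receptor row has 6 black points left of 0 and 1 right of it, and Angptl4 lies farthest left at -1.51.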

How the data were processed

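Brain vessels were profiled on 8 Affymetrix Mouse Gene 2.0 arrays (4 digested, 4 undigested libraries, grouped by their labels). The deposited table holds log2 values, 1 per transcript cluster and array. The authors' methods name Expression Console, EASANA, antigenomic probes for the background correction, and quantile normalization. Which program wrote the table is not given in the sources used here, and the scale was inferred from the values, which is how log2 intensities range. Each library came from its own pool of mice per the methods, and p-values cover the spread among such pools.

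For the floor, 1400 clusters of olfactory and vomeronasal receptors were averaged over the arrays and their 90th percentile was taken, and 27658 of 41345 clusters lay above it. Symbols came from the platform annotation (23521 clusters with a single symbol, 1820 with several, 16004 with none), matched to RefSeq gene identifiers of GRCm38.p6 (23328 found, 0 symbols changed). The test was that of limma 3.58.1 under R 4.3.3 (lmFit, eBayes, two-sided, no covariate) with Benjamini-Hochberg adjustment over all clusters above the floor. Confidence intervals are 95% and unadjusted. Pairs of members were compared with exact permutation. Simulated data with known changes were used to check the steps. Python 3.11.15 with matplotlib 3.10.9 drew the figures.

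The members, the gene lists and the pairs were chosen with earlier results of these data known. Named were all members and the 2 genes nearest to each member. Per role, up to 3 called pathway genes with the largest change and any at 2-fold or more were named. Named markers were Aqp4, Gfap, Cldn5, Acta2 and Ttr (Acta2 differed by 0.36, adjusted p = 0.0512). The astrocyte list genes that did not pass, Aldh1l1, Hes5, Sox9 and Fgfr3, were named too. Other marker lists, by genes lowered and raised: astrocyte intracellular 7 and 0 of 10, pericyte 8 and 0 of 10, smooth muscle 0 and 2 of 10, microglia 3 and 0 of 7, ependymal motile cilia 6 and 0 of 10, neuron 0 and 3 of 9, and erythrocyte with 0 genes matched. Over all genes 9.04% were lowered and 14.4% raised.

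Alternatives were 3 other scalings, no or a stricter filter, array weights, eBayes with a robust trend, the methods' t-test, 2 blocks, gene levels averaged over clusters, and leaving out single arrays or undigested arrays 1 and 2 or 3 and 4.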

Additional observations from a re-analysis of the deposited data

Results flagged for a closer look

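Some values, 3 in number, stood far from the other arrays of their group, by the gap to the nearest array over the range of the group, among 80 groups of 4 values examined, of which chance alone would set apart about 1 in 20. Apod was high on digested replicate 4, at 11.01 against 10.69 to 10.74 on the other digested arrays. Lrpap1 was low on digested replicate 2, at 8.89 against 9.10 to 9.13. The mean of the endothelial list was low on digested replicate 3, at 9.73 against 9.998 to 10.03. Without digested replicate 4 the difference of Apod was -1.03 (limma adjusted p = 0.00423).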

How the results depend on the processing

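Of 189 values of the 9 genes under the alternatives, 161 kept their direction and their side of the threshold. Endothelial centring turned Apoe to 0.011, Lcat to 0.22 and Lrp1 to 0.28, called 40 pathway genes, 12161 of all genes and 17850 clusters (main: 18, 3799 and 5872), and split the genes into 238 lowered and 11923 raised, against 1466 and 2333. Without undigested arrays 1 and 2, 3 members, 7 pathway genes, 1523 genes and 2415 clusters passed, with fewer arrays in the fit. The methods' t-test called 3 members after adjustment, 8 at its unadjusted threshold and 0 with 2-fold added. Leaving out single arrays gave 3 to 6 members, 13 to 20 pathway genes, 2599 to 3530 genes and 4047 to 5610 clusters, and for Lcat minus Lpl -0.80 to -0.58. With the replicate number as a block 5 members, 15 pathway genes and 3420 genes passed, and the 5 within-array differences (0.89, -0.44, -0.64, -0.68 and 1.22) had p = 0.125 in an exact sign permutation of same-numbered arrays, the smallest it allows. Same-numbered arrays deviated together at correlations of 0.06, 0.18, -0.04 and 0.18, and digested arrays 3 and 4 correlated best with another number, so the numbers were not taken as pairs. The cause of these changes was not tested.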
